A study of Homo sapiens with 7 samples.

Results

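FBP1, PFKFB4 and PFKFB3 code for enzymes that help to set how much fructose bisphosphate a cell holds. The peaks of the vitamin D receptor (VDR) around these genes are described here. The members were all peaks, from every list that reaches the locus, that overlapped the gene body or the 50 kb on either side of it in hg19. They were 16 of the 89218 peaks in the lists, and they merged into 12 of 77132 sites, with 3 sites at FBP1, 4 at PFKFB4 and 5 at PFKFB3. The 3 genes were selected on the presence and the authors' fold of these peaks, with results of these data known, so both are given as a description and no test was made on them.

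VDR is a nuclear receptor that binds DNA as a partner of the retinoid X receptor, and its ligand is 1,25(OH)2D3, called 1,25D here, the hormonal form of vitamin D. ChIPmentation joins chromatin immunoprecipitation to transposase-based library making, and it was done with an antibody against VDR in THP-1 cells, a human line from an acute monocytic leukaemia. There were 3 libraries from cells given 100 nM 1,25D for 8 h and 3 from cells given the solvent, 0.1% ethanol (EtOH), for 8 h, and 1 input library was not used here. The labels name no separate cultures, so the replicates may be technical. All libraries come from this 1 line and 1 time point, and transcript levels were not measured.

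Glycolysis and gluconeogenesis run through the same pair of sugar phosphates in opposite directions. Phosphofructokinase adds a phosphate to fructose 6-phosphate, and FBP1, fructose-bisphosphatase, takes it off again in the gluconeogenic direction. PFKFB3 and PFKFB4 are bifunctional enzymes that make and break a second bisphosphate of fructose, a signal that activates phosphofructokinase and inhibits FBP1. PFKFB3 is known for its high kinase activity and its part in the glycolysis of activated myeloid cells, and FBP1 has been described as a vitamin D-responsive gene in monocytic cells.

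Not every list reached every gene. List sizes ranged over 3647 to 15262 peaks after 1,25D and 11895 to 33820 after EtOH, and 3 lists stopped in mid-line as used here. PFKFB3, on chromosome 10, was covered by all 6 lists. PFKFB4, on chromosome 3, was covered by 5, those of 1,25D replicates 1 and 3 and of the 3 EtOH libraries. FBP1, on chromosome 9, was covered by 3 lists, those of 1,25D replicate 1 and of EtOH replicates 1 and 2. Each peak carries the authors' fold enrichment and p-value. Read counts are not given, so depth is unknown, and a missing peak means only that none passed the caller's threshold there.

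The promoters of FBP1 and PFKFB4 are shown because the strongest site of each gene lies upstream of its 5′ end. They are the 250 bases before the annotated start, from RefSeq on GRCh38.p14, both on the minus strand, at chr9:94639519-94639768 for FBP1 and chr3:48556804-48557053 for PFKFB4. The peaks are in hg19, so they could not be placed on these bases. By the hg19 gene bounds the strongest sites lay 11653 bp (FBP1) and 1722 bp (PFKFB4) upstream of the 5′ end. Whether that end is the annotated start of the bases shown was not determined, so these distances are not compared with the 250 bases.
FBP1: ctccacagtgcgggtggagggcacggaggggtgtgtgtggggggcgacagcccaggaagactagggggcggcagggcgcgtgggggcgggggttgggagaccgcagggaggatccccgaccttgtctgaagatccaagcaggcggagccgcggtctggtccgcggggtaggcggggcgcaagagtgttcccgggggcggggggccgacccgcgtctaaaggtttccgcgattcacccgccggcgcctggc
PFKFB4: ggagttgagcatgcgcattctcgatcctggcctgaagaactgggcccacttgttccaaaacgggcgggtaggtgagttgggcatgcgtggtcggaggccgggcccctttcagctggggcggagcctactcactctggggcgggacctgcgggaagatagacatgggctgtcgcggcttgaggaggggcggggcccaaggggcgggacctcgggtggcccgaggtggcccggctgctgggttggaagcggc
Half-sites of the kind VDR binds were searched on both strands: AGGTCA was the first hexamer, AGTTCA the second hexamer, GGGTCA the third hexamer and GGTTCA the fourth one. They were to be marked by capitals, and no base is in capitals because none of the 4 was present. The 2 starts that RefSeq gives for PFKFB3 also held none. Over the 35114 promoters of the same length in that table, 33.8% held at least 1 of the 4 hexamers and 0.0655% held a DR3, a direct repeat of such half-sites 3 bp apart. The windows are rich in G and C, at 72.8% for FBP1, 68.0% for PFKFB4 and 79.2% and 74.4% for the starts of PFKFB3, against a median of 58.0%. An absent match says only that these letters are not in these windows.

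The 3 genes differed in how VDR peaks lay around them. FBP1 and PFKFB4 each had a strong 1,25D peak upstream of the 5′ end with a weaker one beside it. At PFKFB3 no peak reached a fold of 5. Each PFKFB3 peak was in 1 of its 6 covering lists. The strong FBP1 peak was also in 1 list, but only 1 1,25D list covers FBP1, so its recurrence is unknown. Of the 16 peaks, 12 were in 1,25D lists, with folds of 2.53 to 14.4, and 4 were in EtOH lists, with folds of 2.95 to 4.40. Of all 89218 peaks, 1,25D replicates 1 to 3 listed 15262, 3647 and 8620, and EtOH replicates 1 to 3 listed 15974, 33820 and 11895. The genes were chosen on these peaks and the lists cover them unequally, so the split is a description only. All 4 EtOH peaks were from EtOH replicate 2, the longest of the lists, and EtOH replicates 1 and 3 had none in any window they covered. Without that library no window held an EtOH peak, and the FBP1 site that it shared with a 1,25D list was then in no EtOH list. Of the 12 sites, 2 lay in a gene body, 1 in FBP1 and 1 in PFKFB3. The body takes up 37108 of the 137108 bp of the FBP1 window, 39110 of 139110 at PFKFB4 and 90664 of 190664 at PFKFB3. The share of all sites that lie in gene bodies was not computed.

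**Figure D1:**
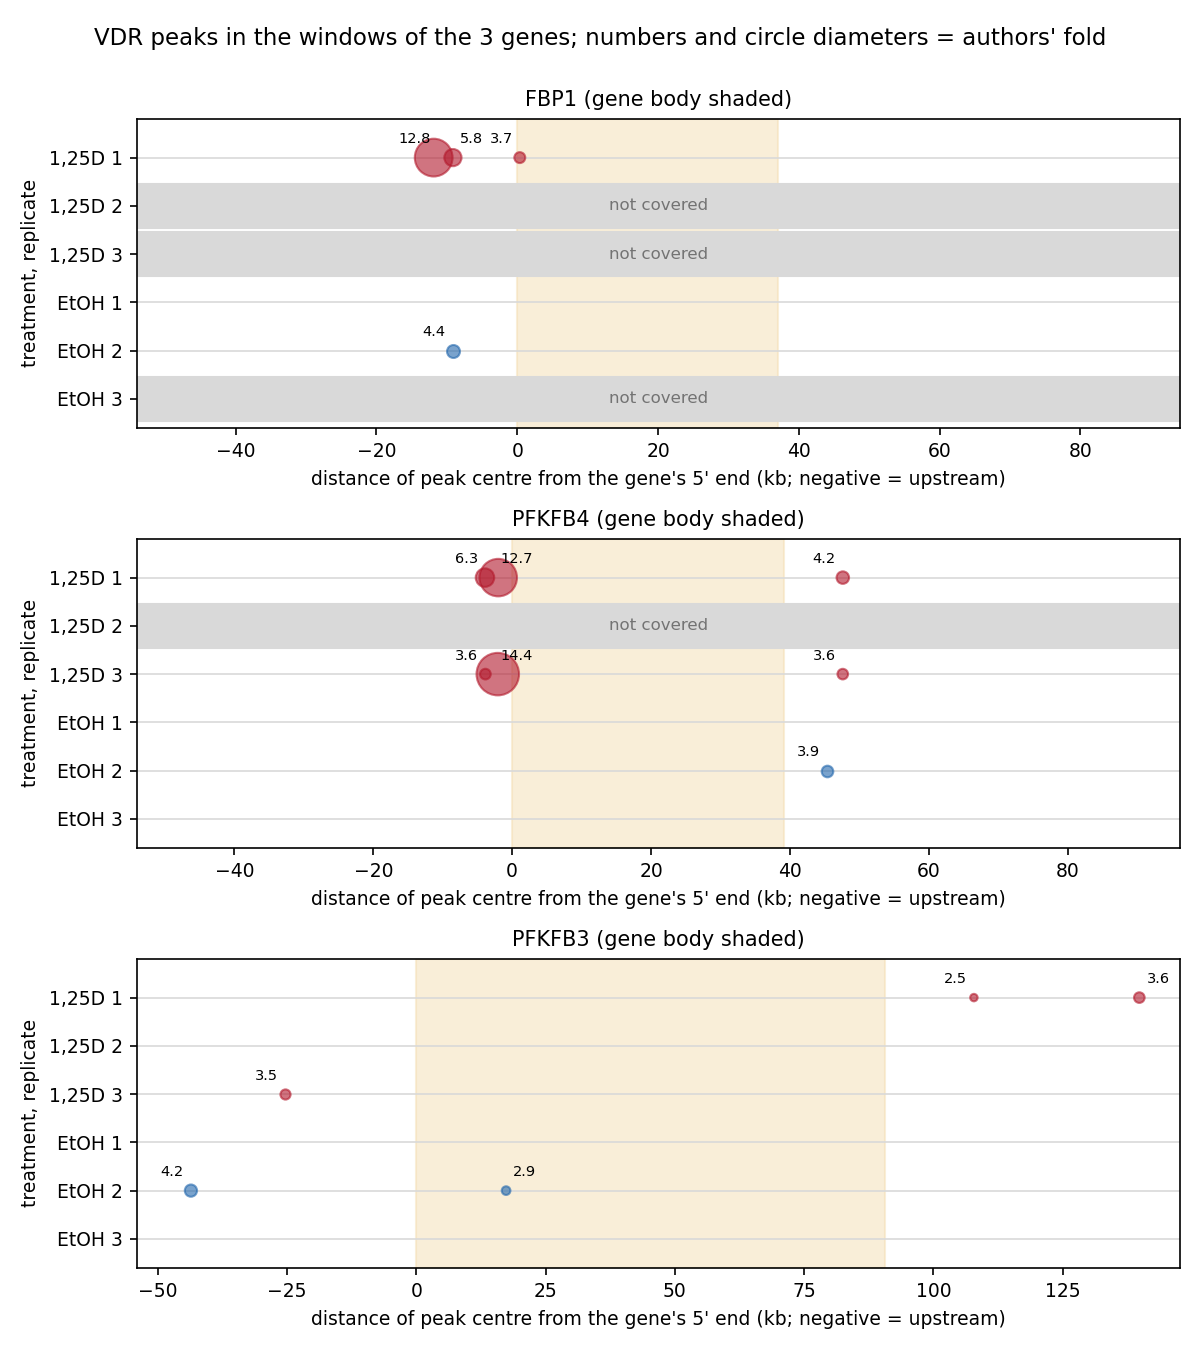
Peaks of each list in the windows of FBP1, PFKFB4 and PFKFB3, by the distance of the peak centre from the gene's 5′ end in kb (negative is upstream); rows are libraries, grey rows are lists that do not reach the locus, numbers and circle diameters give the authors' fold, and shading marks the gene body. The strong 1,25D peaks sit upstream of FBP1 (12.8) and PFKFB4 (12.7 and 14.4), and every EtOH circle is in the row of EtOH replicate 2.

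PFKFB4 had the site that was both strong and found in more than 1 list. It lay at chr3:48595949-48596566, 1722 bp upstream of the gene body, which ends with its 5′ end at 48594227 on the minus strand. The fold was 12.7 in 1,25D replicate 1 and 14.4 in 1,25D replicate 3, against no listed peak in EtOH replicates 1, 2 and 3. The authors' p-values were 3.69e-26 in 1,25D replicate 1 and 1.25e-30 in 1,25D replicate 3. Both 1,25D lists therefore had it, and no EtOH list did. The mean fold was 13.6 ± 1.20 (SD, n = 2). The peaks of the 2 lists shared 487 bp, or 91.5% of the shorter one, and their centres were 65 bp apart.

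That site ranked high within its lists and among sites of its kind. In 1,25D replicate 1, 381 of 15262 peaks (2.50%) had a fold at least as high, and in 1,25D replicate 3, 243 of 8620 (2.82%). Over the stretch of genome covered by the same 5 lists, 627 of 23256 sites, or 2.70%, were called in both 1,25D lists and in no EtOH list, and the PFKFB4 site had the second highest mean fold of the 627. Their median fold was 4.76 (quartiles 3.96 and 5.83), and 12 of them (1.91%) reached a mean of 10. At 617 bp it was also long for its kind, since the median length was 339 bp and 5.42% were at least as long. These values belong to the choice of the gene and are a description only.

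A second site lay 1321 bp further upstream of PFKFB4, at chr3:48597887-48598355. Its fold was 6.28 in 1,25D replicate 1 (p = 2.94e-10, the authors' value) and 3.63 in 1,25D replicate 3 (p = 4.65e-05, the authors' value), against no listed peak in the 3 EtOH lists. It was the weaker neighbour in both 1,25D lists, where the main site had 2.03 times its fold in replicate 1 and 3.97 times in replicate 3. The lists thus placed it within 62 bp of each other but differed 1.73-fold in its strength, and its mean of 4.96 ± 1.87 (SD, n = 2) was close to the median of the 627 sites. In the RefSeq table of GRCh38 the next protein-coding genes on this side are UCN2, which codes for the peptide hormone urocortin 2, and COL7A1, which codes for a collagen of the skin's anchoring fibrils. The PFKFB4 model of that table is longer than the hg19 body used here and overlaps UCN2, and whether the upstream sites lie inside that longer model was not determined.

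On the other side, 8407 bp beyond the 3′ end of PFKFB4, a short site at chr3:48546553-48546710 had a fold of 4.24 in 1,25D replicate 1 and 3.59 in 1,25D replicate 3, against no listed peak in the EtOH lists. It was a weak site for its kind, as 76.9% of the 627 sites had a mean fold at least as high as its 3.92 ± 0.459 (SD, n = 2), and 99.4% were at least as long as its 157 bp. The 1 EtOH peak of the window, at chr3:48548771-48548930, lay 2061 bp from it, with a fold of 3.94 in EtOH replicate 2 alone. So 3 of the 4 sites at PFKFB4 were called in both 1,25D lists and no EtOH list. When the same stretch was divided into 7983 windows of the same length, 139110 bp, 7.05% held at least 1 such site, 0.150% held one with a mean fold of 10 or more, and 4 windows held 3 or more.

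At FBP1 the strongest peak lay further out, at chr9:97414184-97414619, 11653 bp upstream of the 5′ end at 97402531. Its fold was 12.8 in 1,25D replicate 1, with an authors' p-value of 2.85e-25, against no listed peak in EtOH replicates 1 and 2. This is 1 library against a pair, without replicate error for 1,25D. The fold was nearly that of the main PFKFB4 site in the same list, at ranks of 368 for FBP1 and 381 for PFKFB4 among 15262 peaks.

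A second FBP1 site, 2243 bp nearer to the gene at chr9:97411397-97411941, was the 1 member site with peaks in both treatments. Its fold was 5.84 in 1,25D replicate 1 and 4.40 in EtOH replicate 2, and EtOH replicate 1 listed no peak nearer than 64.1 kb to it. The EtOH peak of 208 bp lay wholly within the 1,25D peak of 544 bp, with the centres 2 bp apart. Folds of separately processed lists are not on 1 scale: 11.3% of the 1,25D replicate 1 peaks, and 6.71% of the EtOH replicate 2 peaks, had a fold at least as high. Of the 4620 sites of 1,25D replicate 1 in the stretch covered by the same 3 lists, 251 (5.43%) had a peak in EtOH replicate 2 and none in EtOH replicate 1, as this site did.

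The third FBP1 site lay at the gene itself, at chr9:97402019-97402321, with its centre 361 bp inside the 5′ end. Its fold was 3.71 in 1,25D replicate 1 (p = 3.91e-05, the authors' value), against no listed peak in the EtOH lists, and it was the one 1,25D site in any of the 3 gene bodies. It was an ordinary peak of its list, in which 54.5% of the peaks had a fold at least as high.

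With a single 1,25D list, absence from the EtOH lists says little: 21.1% of the 18837 sites in the stretch that covers FBP1 were in the 1,25D list and in neither EtOH list, and 2 of the 3 FBP1 sites were. Of the windows of that length, 137108 bp, 41.8% held such a site. The strength of the upstream site was less common, since 9 of the 3980 such sites had a fold at least as high and 0.504% of the windows held one of 10 or more.

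How peaks of these strengths recurred could be seen where all 6 lists reach. Among the sites there that 1,25D replicate 1 listed with a fold of 10 to 15 and EtOH replicates 1 and 2 did not list, all 17 were also in 1,25D replicates 2 and 3, and 6 were in EtOH replicate 3. Sites with a fold of 5 to 6.5 in 1,25D replicate 1 that EtOH replicates 1 and 2 did not list, like the second site of PFKFB4, numbered 174, of which 71.3% were in both other 1,25D lists and 12.1% in EtOH replicate 3. With those that these EtOH lists did hold, as EtOH replicate 2 did at the second site of FBP1, they numbered 287, and the shares were 77.4% and 29.3%. These pooled shares include the 174 sites and exceed theirs. Both are therefore higher still among the sites that EtOH replicate 1 or 2 held, which were not counted apart. Sites with a fold of 3 to 4 that EtOH replicates 1 and 2 did not list numbered 2336, of which 90.1% were in neither other 1,25D list and 2.74% were in EtOH replicate 3. The FBP1 site in the gene body is of this last kind. These shares describe other loci and are no measurement of FBP1 in the libraries that do not reach it.

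**Figure D2:**
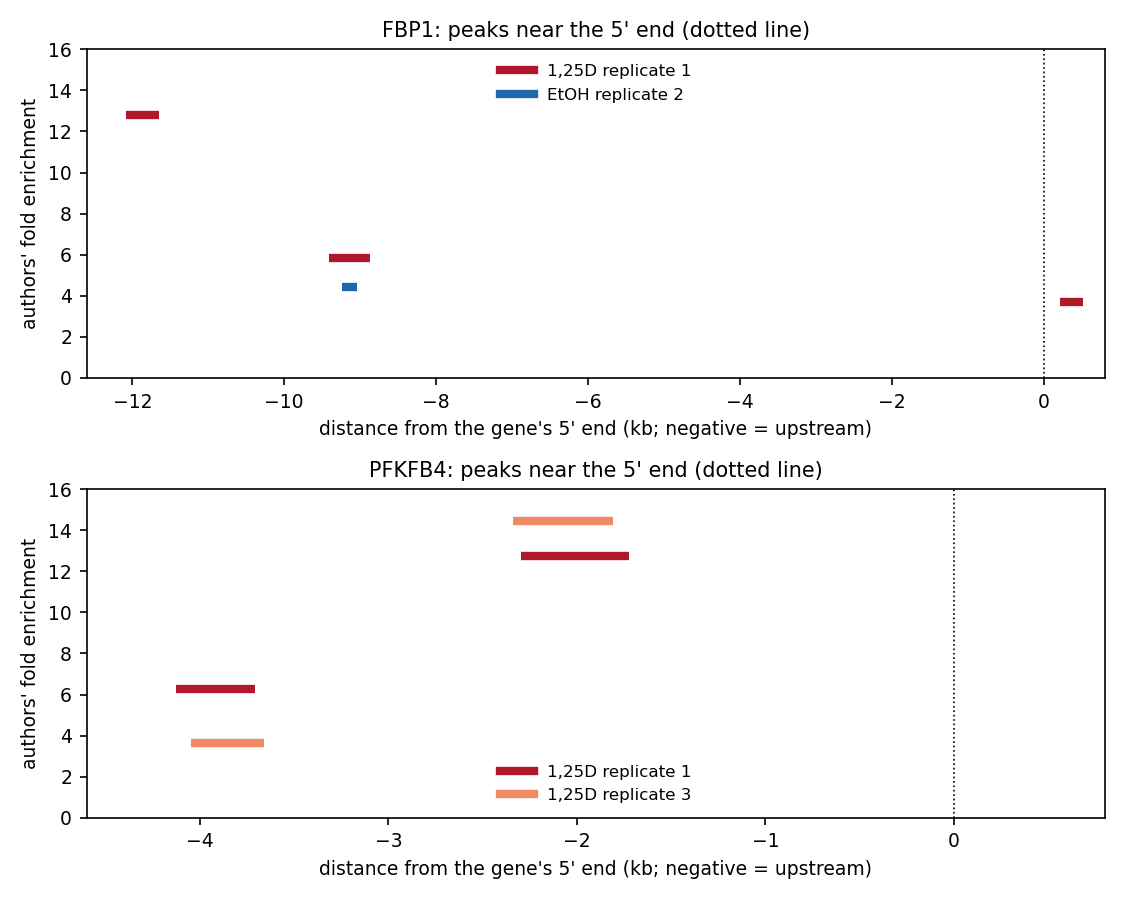
Extent (bar length, kb from the 5′ end, negative is upstream) and authors' fold (height) of the peaks near the 5′ ends of FBP1 and PFKFB4, coloured by library. At PFKFB4 the bars of 1,25D replicates 1 and 3 overlap at both sites, and at FBP1 the EtOH replicate 2 bar (4.40) lies inside the 1,25D replicate 1 bar (5.84).

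The 2 genes shared the arrangement of a strong and a weaker 1,25D peak close together, although in opposite order: the weaker one was the further from PFKFB4 and the nearer to FBP1. In 1,25D replicate 1 the strong peak had 2.20 times the fold of its neighbour at FBP1 and 2.03 times at PFKFB4. In that list 150 of the 603 peaks with a fold of 10 or more (24.9%) had another peak within 3 kb, against 14.0% of all its peaks. The PFKFB4 pair also meets a stricter count, of sites called in both 1,25D lists and in no EtOH list. Of the 627 such sites in its stretch, 30 (4.78%) had another within 2 kb. Neither window held a site called in every list that covers it. The nearest such site to the main PFKFB4 site, called in 5 lists, was 0.331 Mb away. Its fold averaged 34.9 after 1,25D and 26.5 after EtOH. For the strongest FBP1 site the nearest, called in 3 lists, was 0.791 Mb away. Its fold was 14.8 after 1,25D and averaged 7.27 after EtOH. The 2 gaps rest on different numbers of lists, and gaps at other sites were not computed.

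**Figure D3:**
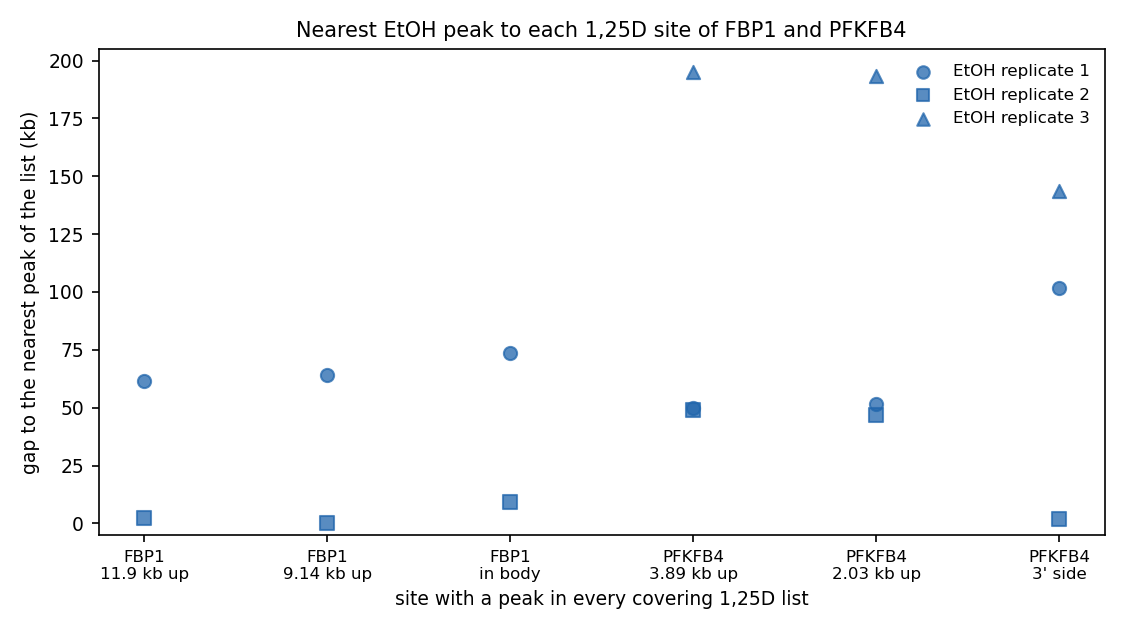
Gap in kb from each site of FBP1 and PFKFB4 that had a peak in every covering 1,25D list to the nearest peak of each covering EtOH list (circles, squares and triangles for replicates 1, 2 and 3). EtOH replicate 2 had a peak at the second FBP1 site, at a gap of 0, while for the main PFKFB4 site the gaps were 51.7, 47.0 and 193 kb.

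PFKFB3 was covered by all 6 lists and had no site in more than 1 of them. After 1,25D, replicate 1 listed a peak at chr10:6326618-6326765 with a fold of 3.61 and one at chr10:6294617-6294764 with 2.53, both beyond the 3′ end. Replicate 3 listed one at chr10:6161404-6161558 with 3.45, which lay 25285 bp upstream, and replicate 2 listed none. After EtOH, replicate 2 listed one at chr10:6143153-6143352 with a fold of 4.15, upstream, and one at chr10:6204130-6204287 with 2.95, inside the gene, and replicates 1 and 3 listed none. The window thus held 3 peaks from the 1,25D lists and 2 from the EtOH lists, all at separate sites, and none reached a fold of 5. The 1,25D replicate 3 peak had the median fold of its list, in which 56.2% of the peaks, ties included, had a fold at least as high. The 2 peaks of 1,25D replicate 1 were below the median of their list, and for the weaker of them 99.3% of the peaks had a fold at least as high.

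Single-list sites of this kind were the usual case, as 89.8% of the 28993 sites of the stretch were in 1 list. Over that stretch 1.70% of the sites had a peak in each 1,25D list and none in any EtOH list, and 8.39% of 5068 windows of 190664 bp held one, whereas the PFKFB3 window held 0. The number of sites of any kind was not unusual either, since 46.8% of these windows held at least the 5 that PFKFB3 had.

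The edge of the window mattered for PFKFB3. Inside, the peak at 6326618 ended 742 bp short of the edge. Outside, 14.5 kb beyond the edge and 64.5 kb beyond the gene body, chr10:6341976-6342440 had a fold of 3.71 in 1,25D replicate 1, 6.83 in replicate 2 and 5.76 in replicate 3, against no listed peak in the EtOH lists. All 3 1,25D lists held it, with a mean of 5.43 ± 1.58 (SD, n = 3), against a median of 4.86 for the 492 sites of that stretch with the same pattern. A weaker site at chr10:6333063-6333329, 5.56 kb beyond the edge, had 3.53 in 1,25D replicate 2 and 3.45 in replicate 3. Upstream, 28.7 kb beyond the edge, chr10:6107751-6108094 had 5.29 in 1,25D replicate 1 and 4.24 in replicate 2, with a separate EtOH replicate 2 peak of 4.13 ending just before it. The PFKFB3 model in the RefSeq table of GRCh38 is longer than the hg19 body used here. The next protein-coding genes are RBM17, a splicing factor, upstream and PRKCQ, a protein kinase C, downstream. IL2RA follows beyond RBM17, and SFMBT2 beyond PRKCQ. Which of these genes the outside sites lie nearest to was not determined. At FBP1 the nearest peak outside the window was an EtOH replicate 2 peak with a fold of 2.75, at 145 bp from the edge. Further out, 8.51 kb beyond that edge, chr9:97461042-97461222 had a fold of 4.81 in 1,25D replicate 1, against no listed peak in the 2 EtOH lists. At PFKFB4 the nearest was an EtOH replicate 1 peak with 4.17, at 4054 bp.

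Set side by side in 1,25D replicate 1, the 1 hormone list that reaches all 3 genes, the strongest peak had a fold of 12.8 at FBP1, 12.7 at PFKFB4 and 3.61 at PFKFB3. Their ranks among the 15262 peaks were 368, 381 and 10433. In that list FBP1 and PFKFB4 thus stood together near the top and PFKFB3 in the lower part. The 2 EtOH lists that also reach all 3 genes differed from each other: the strongest peak of EtOH replicate 2 had 4.40 at FBP1, 3.94 at PFKFB4 and 4.15 at PFKFB3, and EtOH replicate 1 listed none at any of them.

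**Figure D4:**
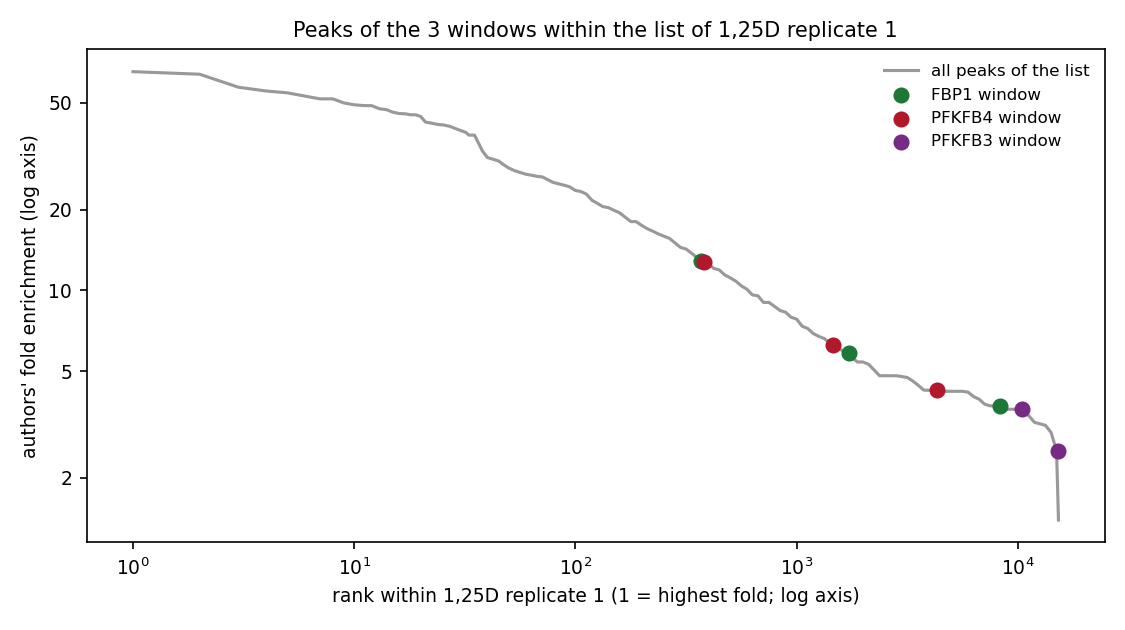
Authors' fold (log axis) against rank (log axis, 1 is the highest) for all 15262 peaks of 1,25D replicate 1 (grey line), with the peaks of the FBP1, PFKFB4 and PFKFB3 windows as points. The strongest FBP1 and PFKFB4 points coincide at ranks 368 and 381, and the PFKFB3 points lie at ranks 10433 and 15156.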

How the data were processed

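VDR ChIPmentation peak lists of 6 THP-1 libraries, 3 after 1,25D and 3 after EtOH, were used. Reads were aligned to hg19 with Bowtie 1.1 and MACS2 called the peaks, per the submitters' processing notes. Settings, threshold and any use of the input were not given in the sources used. Each list holds 1 sample's peaks with a fold enrichment, a ratio over background, per the file headers, and a p-value, per the file headers. The highest p was 0.00433 and 0.00431 in 1,25D and EtOH replicates 1 and 0.00978 to 0.00997 in the others.

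Incomplete last lines were dropped. Peaks sharing at least 1 bp across the 6 lists were merged into sites, and a list's highest fold there was its fold (Python 3.11.15, NumPy 2.4.6, matplotlib 3.10.9). Sites were counted over the lists that reach them, beside the same counts over all sites and windows. The merging was tested on simulated lists. Coordinates are printed as deposited, and whether starts count from 0 or from 1 is not stated.

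The members, windows and lists of settings were chosen with earlier results of these data known. No test was run: at most 3 libraries stood against 3, where the smallest exact permutation p is 0.1. Named are the genes and, by position, every site, which goes beyond the rule set at the start (sites in 2 or more lists and the strongest single-list site per gene and treatment); sites outside the windows were chosen after their values were seen. Distances use the gene bounds in hg19 and RefSeq strands. Other genes of glycolysis and gluconeogenesis were not located in hg19, as no hg19 annotation was used here. In the RefSeq table of GRCh38 the protein-coding genes next to FBP1 are AOPEP on the upstream side and FBP2 on the other. FBP2 is a gene of the same pathway, and whether it reaches into the FBP1 window was not determined. Columns of other samples numbered 0.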

Additional observations from a re-analysis of the deposited data

How the results depend on the processing

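Counts of sites were computed again under each alternative, 76 values in all, of which 63 stayed within 1.5 times the reported count or within the replicate SD. The exceptions follow, first for sites in every covering 1,25D list and then for those also absent from every EtOH list. At a fold of 10 or more FBP1 had 1 and 1 and PFKFB4 1 and 1, and at a fold of 5 or more PFKFB4 had 1 and 1. With the gene body alone FBP1 had 1 and 1 and PFKFB4 0 and 0, and with 10 kb on each side the FBP1 count of sites absent from EtOH was 1. With 100 kb on each side PFKFB3 had 1 and 1, and FBP1, within 1.5 times, had 4 and 3. Fewer peaks or a shorter or longer window account for these by construction. One highest p of 0.00431 for all lists, a 50% overlap and centres in the window moved no count beyond 1.5 times. Leaving out 1 replicate gave 3 to 3 and 2 to 3 for FBP1, 0 to 0 and 0 to 0 for PFKFB3 and 3 to 3 and 3 to 3 for PFKFB4, and a mean fold of 12.7 to 14.4 at the main PFKFB4 site. All of these are among the 63, but some carry little weight. Dropping 1 of 2 values always moves their mean by less than their SD. Counts over the 1,25D lists alone take no call from an EtOH list, so dropping one could hardly change them. Without EtOH replicate 2 no window held an EtOH peak, and all 3 FBP1 sites were then absent from EtOH. FBP1 without 1,25D replicate 1 gives no value. The planned difference in fold between treatments, with its percentile version, was not run, because no EtOH list had a peak at the strongest site of FBP1 or PFKFB4. No paired analysis was possible because these results come from no test. Set side by side by replicate number, the PFKFB3 window held 2, 0 and 1 peaks in 1,25D replicates 1 to 3, against 0, 2 and 0 in EtOH replicates 1 to 3. Read depth is unknown, which limits every statement on absence.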
